A study of Mus musculus with 5 samples.

Results

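The transcripts of 10 inhibitory immune receptors of myeloid cells were examined in dendritic cells with and without the transcription factor gene Etv3. The receptors are Pirb, Lilrb4a, Siglece, Siglecg, Sirpa, Cd300a, Cd300lf, Cd200r1, Fcgr2b and Havcr2. They were chosen by name, from what is known of the proteins, but with earlier results of these data known. All 10 were found among the 27678 gene symbols of the deposited table. The samples were 2 Etv3+/+ libraries (replicates 1 and 2) and 3 Etv3-/- libraries (replicates 1, 2 and 3) of RNA from mouse bone marrow cells. These had grown for 6 days in GM-CSF (20 ng/ml) with IL-4 (5 ng/ml), which turns marrow progenitors into dendritic cells. Both genotypes had the same culture and the same sort, for live single CD11c+ cells of intermediate CD11b and high MHC class II without CD115, with a stated purity above 95%. The labels give neither the age of the mice, nor the part of Etv3 that was disrupted, nor whether replicates were separate animals, so every p-value measures the spread between these libraries, which may be technical.

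Inhibitory receptors set a brake on myeloid cells. Most carry immunoreceptor tyrosine-based inhibitory motifs (ITIMs) in the cytoplasmic tail. Once a Src family kinase such as LYN has phosphorylated them, the ITIMs recruit the phosphatases SHP-1, SHP-2 or SHIP-1, which act against signals from receptors coupled to activating (ITAM) adaptors. Many have activating relatives that bind similar ligands, so that the same cell can hold both arms of a pair. Of the receptors described here, CD200R1 and TIM-3 (the product of Havcr2) signal without a classical ITIM, and in dendritic cells several of them are known to limit responses to microbial or self ligands.

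Etv3 encodes a factor of the ETS family, whose members bind DNA at a GGAA core. The sequence before the start of 3 receptor genes is therefore shown, for Havcr2 and Fcgr2b because their ratios of Etv3-/- to Etv3+/+ were the highest of the 10, and for Pirb because it had the highest level per length in Etv3+/+ and was not higher in Etv3-/-. Each run is the 250 bases before the annotated start, read 5′ to 3′ on the strand of the gene (RefSeq, GRCm38.p6), with each GGAA or its reverse complement TTCC in capitals. The Havcr2 window is chr11:46454681-46454930 (plus strand), that of Fcgr2b chr1:170976072-170976321 (minus strand) and that of Pirb chr7:3720383-3720632 (minus strand). The start used is that of RefSeq, while the gene positions given below are those of GENCODE, and the 2 differ. The Fcgr2b window lies wholly inside the GENCODE gene, which reaches to 170976547. The Pirb window overlaps the end of its GENCODE gene at 3720391.
Havcr2: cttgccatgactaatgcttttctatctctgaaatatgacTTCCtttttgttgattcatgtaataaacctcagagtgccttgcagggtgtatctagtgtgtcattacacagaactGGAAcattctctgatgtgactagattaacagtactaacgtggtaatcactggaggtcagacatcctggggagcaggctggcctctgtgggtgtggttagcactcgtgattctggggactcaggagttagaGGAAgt
Fcgr2b: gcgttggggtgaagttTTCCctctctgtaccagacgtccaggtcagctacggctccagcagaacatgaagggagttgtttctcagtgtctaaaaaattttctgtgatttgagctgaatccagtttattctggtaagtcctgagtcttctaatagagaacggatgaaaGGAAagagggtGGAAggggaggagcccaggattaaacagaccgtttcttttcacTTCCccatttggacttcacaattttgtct
Pirb: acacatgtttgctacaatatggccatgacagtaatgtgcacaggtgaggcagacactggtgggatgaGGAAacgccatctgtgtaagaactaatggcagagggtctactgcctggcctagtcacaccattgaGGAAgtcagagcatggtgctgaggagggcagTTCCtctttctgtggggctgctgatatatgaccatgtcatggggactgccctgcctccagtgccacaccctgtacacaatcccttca
The Havcr2, Fcgr2b and Pirb windows held 3, 4 and 3 such cores. The core occurred in 93.4% of the 32851 windows of this length in the RefSeq table, with a median of 3 per window, so most genes hold it as these do. Among the other receptors the windows of Siglece held 5, Cd300a 7 and Cd300lf 4, and the 2 windows of Siglecg 3 and 0. The longer forms CCGGAA and CCGGAAGT, which contain the core, were searched on both strands as well. None of the 8 windows of these 7 receptors held either of them, against 12.0% and 2.88% of all windows. A match describes letters and not binding. Sirpa, Lilrb4a and Cd200r1 had no entry.

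The libraries held 42983550 to 68253936 recovered reads, and each receptor had at least 820 reads in every library except Siglece, which had 7 to 574. Etv3 itself (chromosome 3, 87525407 to 87540156, GRCm38) was at 23050 and 25447 normalized counts in Etv3+/+ and at 18691, 20416 and 22856 in Etv3-/-. A normalized count is a read count divided by a factor for its library. The labels do not say where the locus was disrupted, so the total over the gene is no check of the knockout, and each genotype is the labelled one.

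None of the 10 receptors passed the test between genotypes. All 10 had at least 10 normalized counts in 2 or more libraries and entered limma with 13813 genes, of which 0.876% were called higher and 0.319% lower in Etv3-/- at an adjusted p under 0.05. At an unadjusted p under 0.05 there were 3 receptors, Havcr2, Fcgr2b and Sirpa, all with higher values in Etv3-/-, against 18.0% of all genes in either direction, 8.02% higher and 9.93% lower. On the recovered reads edgeR called 0 of 10, where it called 1.14% of all genes, and DESeq2 called these 3, where it called 8.46% of all genes with an adjusted p. In 5 receptors no value of one genotype fell within the range of the other (36.0% of all genes), 4 of them higher in Etv3-/- (16.7% of all genes) and 1 lower (19.3% of all genes). The median log2 fold change of the 10 receptors was 0.32, against -0.06 for all genes tested. It was 0.52 without Etv3+/+ replicate 1 and 0.17 without Etv3+/+ replicate 2. Fold changes are given as Etv3-/- relative to Etv3+/+ on the scale of log2(normalized count + 1). The two-sided exact permutation test of a single gene can reach no p under 0.1 here, since 2 and 3 libraries allow only 10 splits.

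**Figure D1:**
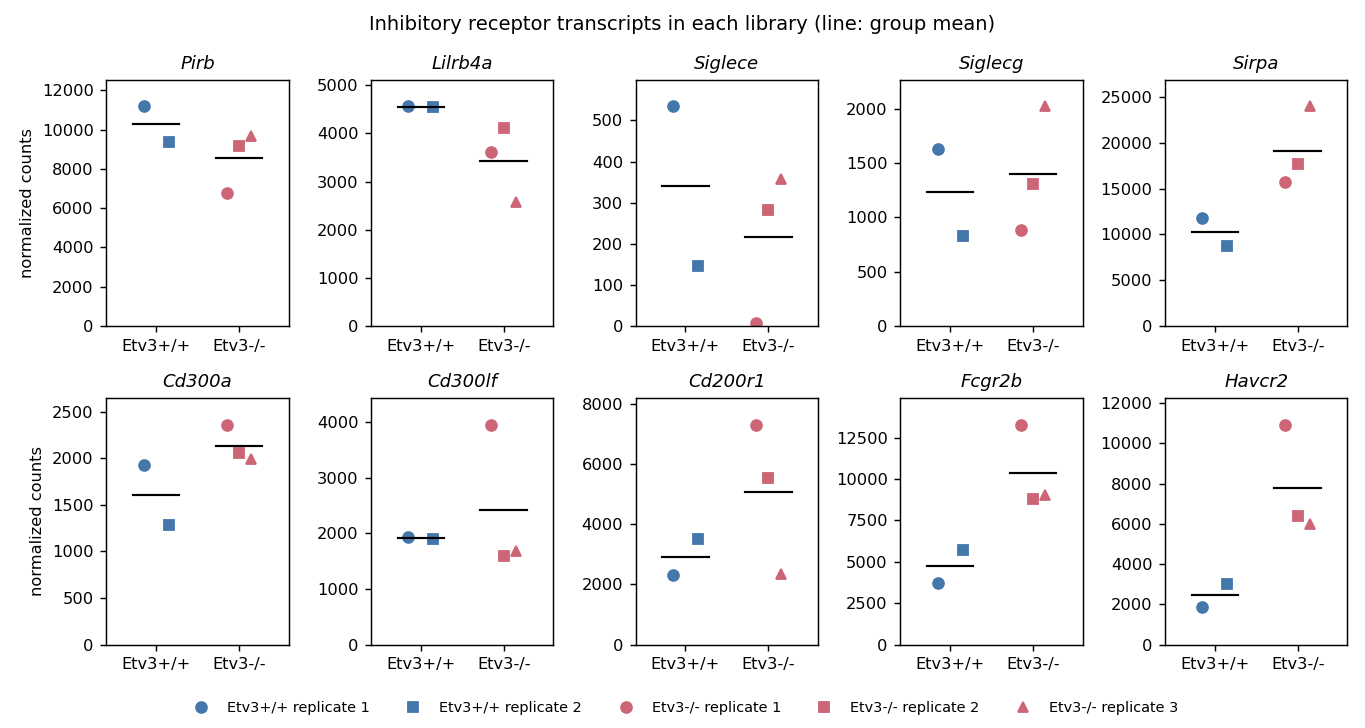
Normalized counts (y axis, from 0, a separate scale per panel) of the 10 inhibitory receptors in the 2 Etv3+/+ and 3 Etv3-/- libraries, one point per library and a line at each group mean. Havcr2, Fcgr2b, Sirpa and Cd300a lie higher in every Etv3-/- library than in either Etv3+/+ library, Lilrb4a lies lower, and the genotypes overlap for the other 5.

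Havcr2 had the largest difference. It encodes TIM-3, a receptor for galectin-9 and phosphatidylserine that restrains dendritic cell responses to nucleic acids. Its gene lies on chromosome 11 (46454935 to 46481255, GRCm38). Havcr2 had 1857 (replicate 1) and 3019 (replicate 2) normalized counts in Etv3+/+. The Etv3-/- libraries had 10926, 6384 and 5968, given here and for every gene in the order of their replicate numbers. The genotypes did not overlap, and Etv3-/- replicate 1 stood above the rest of its group. The mean was 3.18 times that of Etv3+/+, 7759 ± 2750 (SD, n = 3) against 2438 ± 821 (SD, n = 2). The log2 fold change was 1.66 (SE 0.33, 95% interval 0.88 to 2.43), with a limma adjusted p = 0.0656 and an exact permutation p = 0.1. Quantile scaling brought the limma adjusted p to 0.0426, and DESeq2 gave an adjusted p = 0.000238. Over all alternatives the adjusted p ran from 0.000238 to 0.236, and the log2 fold change from 1.31 to 2.17.

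Fcgr2b followed the same profile over libraries. It encodes FcγRIIB, the inhibitory receptor for IgG immune complexes, which recruits SHIP-1. Fcgr2b (chromosome 1, 170958617 to 170976547) was at 3693 and 5728 normalized counts in Etv3+/+ and at 13278, 8805 and 9022 in Etv3-/-. The lowest Etv3-/- library was thus above the highest Etv3+/+ library, and Etv3-/- replicate 1 was again the highest. The mean was 2.20 times higher in Etv3-/- (log2 fold change 1.15, SE 0.28, 95% interval 0.50 to 1.79, limma adjusted p = 0.105). DESeq2 gave an adjusted p = 0.00617, and the alternatives ranged up to an adjusted p = 0.291. The annotation places a gene on the opposite strand, Gm38204, within Fcgr2b, and the pair cannot be separated if strand was not used in counting. Across the 5 libraries the log2 values of Fcgr2b and Havcr2 had a Pearson correlation of 0.996, a description over libraries that also differ in genotype.

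The activating partner of FcγRIIB also had higher values in every Etv3-/- library. Fcgr3, which encodes the activating IgG receptor FcγRIII, was at 5584 and 4121 normalized counts in Etv3+/+ and at 15841, 9113 and 10559 in Etv3-/- (log2 fold change 1.26, SE 0.28, limma adjusted p = 0.0819). The ratio of Fcgr2b to Fcgr3, each per kb of annotated exon, was 0.198 and 0.417 in Etv3+/+ and 0.251, 0.290 and 0.256 in Etv3-/-. The ratio of Fcgr2b to Fcgr3 therefore overlapped between genotypes, with the Etv3+/+ libraries at both ends of its range. On the same scale, Cd200r1 to Cd200r4 was 2.01 and 2.13 in Etv3+/+ and 3.98, 5.86 and 3.01 in Etv3-/-, without overlap. Cd300a to Cd300c2 was 1.73 and 1.48 against 3.69, 1.96 and 2.48, also without overlap. The ratios of Fcgr2b to Fcgr4, Cd300lf to Cd300lb and Pirb to Pira2 overlapped. None of these ratios was tested, and the share of all gene pairs without overlap was not computed. Fcer1g, the ITAM chain that FcγRIII needs at the cell surface, was at 8692 and 9153 in Etv3+/+ and at 19759, 15649 and 20892 in Etv3-/- (limma adjusted p = 0.0635).

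Sirpa encodes SIRPα, the receptor for the "do not eat me" ligand CD47 and a marker of type 2 conventional dendritic cells. Sirpa (chromosome 2, 129592835 to 129632228) was at 11778 and 8734 normalized counts in Etv3+/+ and at 15767, 17683 and 24014 in Etv3-/-. Here Etv3-/- replicate 3 was the highest and replicate 1 the lowest of its group, while for Havcr2 and Fcgr2b replicate 1 was the highest. The mean was 1.87 times higher in Etv3-/- (log2 fold change 0.89, SE 0.25, 95% interval 0.31 to 1.48, limma adjusted p = 0.138). The DESeq2 adjusted p was 0.0128 and the highest over the alternatives 0.404. Its ligand gene Cd47 was at 45680 and 42907 normalized counts in Etv3+/+ and at 37517, 37423 and 27216 in Etv3-/- (log2 fold change -0.39, SE 0.23, limma adjusted p = 0.415). Both genes had genotypes that did not overlap (36.0% of all genes), in opposite directions, and neither passed the test.

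Cd300a and Cd300lf both lie in the CD300 cluster of chromosome 11 (114890041 to 114904654 and 115116214 to 115133992), and both proteins bind membrane lipids such as phosphatidylserine. Cd300a was at 1927 and 1278 normalized counts in Etv3+/+ and at 2362, 2053 and 1990 in Etv3-/-. The groups did not overlap, but Etv3+/+ replicate 1 lay close below the lowest Etv3-/- library, and the log2 fold change was 0.44 (SE 0.27, limma adjusted p = 0.429). Cd300lf, which encodes CD300f, was at 1931 and 1895 in Etv3+/+ and at 3958, 1600 and 1685 in Etv3-/-. Only Etv3-/- replicate 1 was above Etv3+/+, and the other Etv3-/- libraries were below it. The difference of log2 values was 0.20, its 95% interval -0.73 to 1.14 (limma adjusted p = 0.835), and it was -0.22 without Etv3-/- replicate 1. Rab37 overlaps Cd300lf on the opposite strand, which makes the value uncertain where strand was not used.

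Cd200r1 encodes the receptor for CD200, which signals through the adaptor DOK2 and RasGAP. Cd200r1 (chromosome 16, 44765736 to 44794978) was at 2306 and 3508 normalized counts in Etv3+/+ and at 7301, 5536 and 2326 in Etv3-/-. Etv3-/- replicate 3 lay at the level of Etv3+/+ replicate 1, while the other Etv3-/- libraries were above both Etv3+/+ libraries. The log2 fold change was 0.68 (SE 0.46, 95% interval -0.40 to 1.75, limma adjusted p = 0.477). It was 0.34 without Etv3-/- replicate 1, 0.37 without Etv3+/+ replicate 1 and 1.16 without Etv3-/- replicate 3, and in none of these refits did it pass. The gene for its ligand, Cd200, was at 24299 and 32002 in Etv3+/+ and at 18542, 20398 and 14043 in Etv3-/- (log2 fold change -0.68, SE 0.24, limma adjusted p = 0.212). Of the downstream genes, Dok2 was at 2799 and 2123 against 4967, 6017 and 6717 (log2 fold change 1.26, limma adjusted p = 0.0550) and Rasa1, which encodes RasGAP, at 6034 and 8314 against 3155, 4064 and 1887 (log2 fold change -1.29, limma adjusted p = 0.121). Dok2 passed with TMM or quantile scaling, a pseudocount of 5, a filter of 50 or DESeq2. For both downstream genes the genotypes did not overlap, Dok2 with higher (16.7% of all genes) and Rasa1 with lower values in Etv3-/- (19.3% of all genes).

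Pirb and Lilrb4a, the members of the immunoglobulin-like transcript family among the 10 receptors, had lower means in Etv3-/-. Pirb encodes PIR-B, an inhibitory receptor for MHC class I. Pirb (chromosome 7, 3711409 to 3720391) was at 11202 and 9383 normalized counts in Etv3+/+ and at 6789, 9184 and 9657 in Etv3-/-. Its genotypes overlapped, because Etv3-/- replicate 3 was above Etv3+/+ replicate 2 (log2 fold change -0.28, 95% interval -0.81 to 0.25, limma adjusted p = 0.551). Lilrb4a encodes gp49B, an ITIM receptor of myeloid cells and mast cells. Lilrb4a (chromosome 10, 51490956 to 51496611) was at 4567 and 4549 in Etv3+/+ and at 3618, 4113 and 2566 in Etv3-/-, without overlap (log2 fold change -0.44, 95% interval -1.02 to 0.15, limma adjusted p = 0.409). The intervals of both receptors include 0. Reads of Pirb can also fit the closely related Pira genes and those of Lilrb4a the adjacent copy Lilr4b, and Gm49339 and Gm40645 overlap Lilrb4a, so both values are uncertain.

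Of the sialic acid receptors, Siglecg encodes SIGLEC-G, an inhibitory receptor of B cells and dendritic cells that binds CD24. Siglecg (chromosome 7, 43408204 to 43418358) was at 1631 and 830 normalized counts in Etv3+/+ and at 882, 1304 and 2026 in Etv3-/-, so that the Etv3-/- libraries lay on both sides of Etv3+/+ replicate 1. The difference of log2 values was 0.19, with a 95% interval from -0.82 to 1.19 (limma adjusted p = 0.860). Siglece encodes SIGLEC-E, an ITIM receptor best known from neutrophils and macrophages. Siglece (chromosome 7, 43651070 to 43660161) was at 535 and 147 in Etv3+/+ and at 7.53, 281 and 359 in Etv3-/-. The low value is Etv3-/- replicate 1, with 7 reads, and the other Etv3-/- libraries lay between the Etv3+/+ libraries. The log2 fold change of -1.56 (95% interval -5.17 to 2.04, limma adjusted p = 0.637) rested on that library and was 0.18 without it. The ligand gene Cd24a was at 10499 and 18330 normalized counts in Etv3+/+ and at 7021, 6799 and 5823 in Etv3-/- (log2 fold change -1.09, SE 0.27, limma adjusted p = 0.107).

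**Figure D2:**
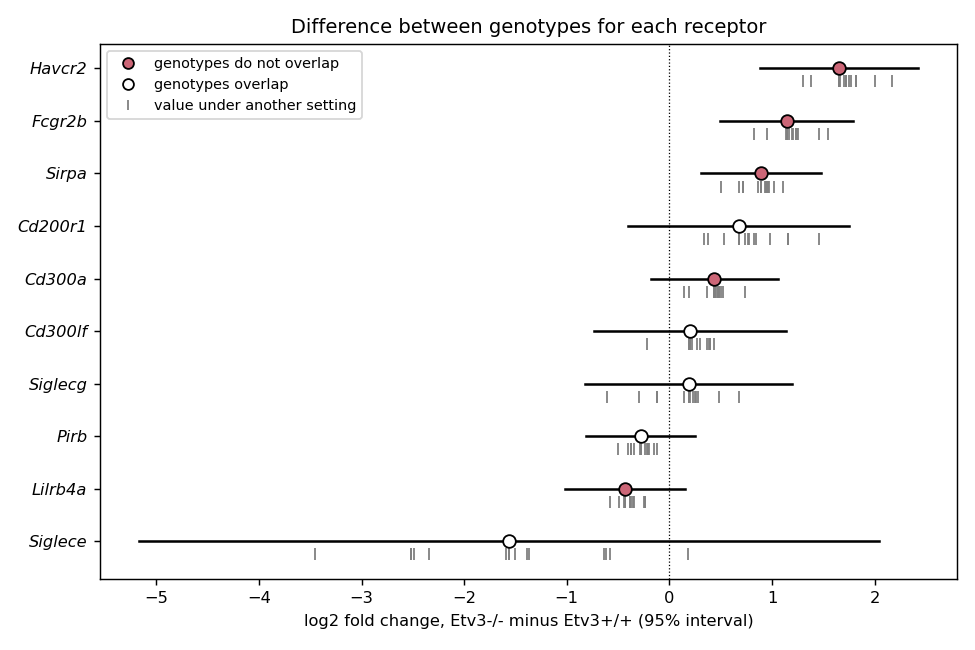
Log2 fold change of each receptor (x axis, Etv3-/- minus Etv3+/+) with its 95% interval, filled where the genotypes do not overlap, and the values under the 18 other settings as grey ticks. The intervals of Havcr2, Fcgr2b and Sirpa lie above 0 and the other 7 include 0, the widest being that of Siglece.

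Levels were compared between receptors per kb of annotated exon, a length that can exceed that of the transcript in use. In Etv3+/+ Pirb (2302 ± 288 normalized counts per kb, SD, n = 2) and Sirpa (2088 ± 438) were the most abundant, and their ranges overlapped. Havcr2 (896 ± 302), Lilrb4a (872 ± 2.39), Cd200r1 (868 ± 254) and Fcgr2b (814 ± 249) followed, each with a range that overlapped that of its neighbour. Below them came Cd300lf (371 ± 5.01), Cd300a (338 ± 96.8), Siglecg (256 ± 118) and Siglece (184 ± 148), again with overlapping neighbours. The ranges parted only between Sirpa and Havcr2 and between Fcgr2b and Cd300lf.

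In Etv3-/- the order began with Sirpa (3900 ± 879 normalized counts per kb, SD, n = 3) and Havcr2 (2852 ± 1011), whose ranges overlapped. Pirb (1911 ± 344), Fcgr2b (1791 ± 436) and Cd200r1 (1510 ± 753) followed, then Lilrb4a (657 ± 151), Cd300lf (469 ± 260), Cd300a (451 ± 42.0), Siglecg (292 ± 120) and Siglece (117 ± 99.8). Ranges of neighbours overlapped throughout except between Havcr2 and Pirb. Havcr2 ranked 3 in Etv3+/+ and 2 in Etv3-/-, and Pirb 1 and 3.

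**Figure D3:**
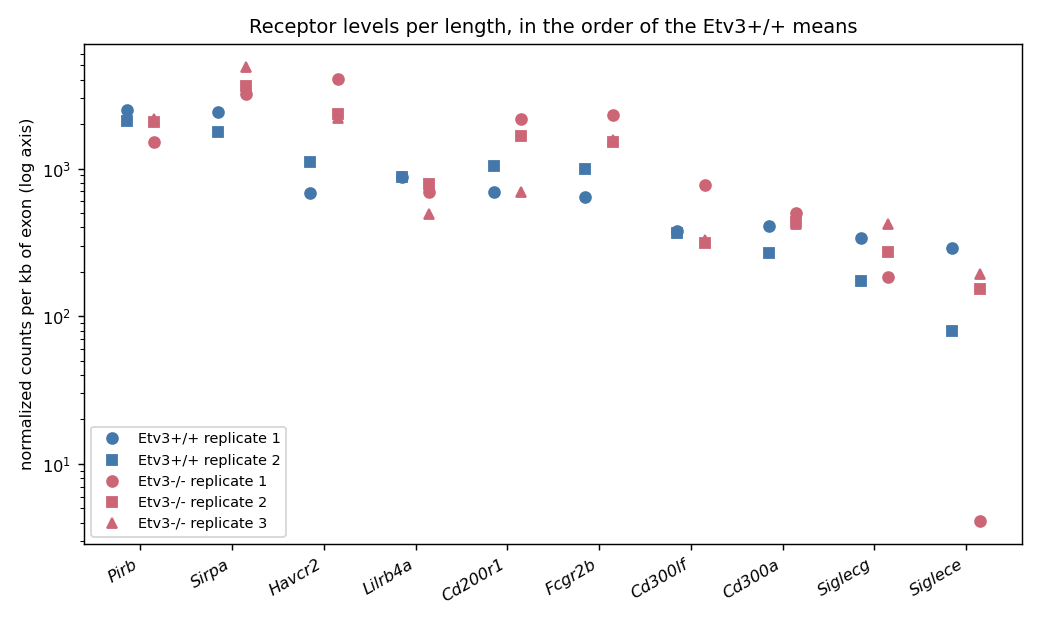
Normalized counts per kb of annotated exon (y axis, log scale) of the 10 receptors in each library, ordered by the Etv3+/+ mean. Pirb and Sirpa are highest in Etv3+/+, Sirpa and Havcr2 in Etv3-/-, and the single low point is Siglece in Etv3-/- replicate 1, at 4.07 per kb.

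A wider list of 25 inhibitory receptors held 1 that passed. Of 23 tested, Pilra rose and 0 fell, with a median log2 fold change of 0.41, or 0.20 without Etv3+/+ replicate 1. edgeR called 1 higher, DESeq2 3 higher and 1 lower, and limma without its trend 0. With the replicate block the list had 1 higher and 1 lower call. Pilra encodes PILRα, an ITIM receptor for sialylated glycoproteins. It was at 283 and 171 normalized counts in Etv3+/+ and at 1426, 1342 and 1882 in Etv3-/-, a mean 6.82 times higher (log2 fold change 2.79, SE 0.36, limma adjusted p = 0.0203). No library of one genotype came near the other. Without Etv3-/- replicate 1, 2 or 3 the limma adjusted p of Pilra was 0.107, 0.0878 or 0.109. Cd72, an ITIM receptor of B cells and some dendritic cells, was named after its values were seen. It was at 1368 and 1088 normalized counts in Etv3+/+ and at 2358, 2166 and 2661 in Etv3-/- (log2 fold change 0.97, limma adjusted p = 0.113).

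Among 31 activating counterparts 22 were tested and 0 rose or fell in limma, with 5 at an unadjusted p under 0.05, all higher. edgeR called 0 and DESeq2 5 of them. The median log2 fold change was 0.44, and it ran from 0.20 without Etv3-/- replicate 3 to 0.95 without Etv3+/+ replicate 2. Whether it differs from that of the inhibitory receptors was not tested. By mean level Fcgr3, given above, and Trem2 were the highest. Trem2, which encodes a lipid receptor coupled to DAP12, was at 1522 and 1207 normalized counts in Etv3+/+ and at 4108, 2753 and 2824 in Etv3-/- (log2 fold change 1.23, SE 0.27, limma adjusted p = 0.0800).

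Genes for protein ligands of these and other inhibitory receptors had a median below 0. Of 12 listed, 11 were tested and 0 passed in limma or edgeR, while DESeq2 called 1 higher and 2 lower. At an unadjusted p under 0.05 there were 1 higher and 4 lower, and the median log2 fold change was -0.39, or -0.079 without Etv3-/- replicate 1 and -0.24 without Etv3-/- replicate 3. The most abundant were Cd47, given above, and Cd274, which encodes the PD-1 ligand PD-L1 and was at 23080 and 35005 normalized counts in Etv3+/+ and at 31339, 28845 and 25114 in Etv3-/-. Lgals9, the gene of the TIM-3 ligand galectin-9, was at 2321 and 1899 in Etv3+/+ and at 3967, 3562 and 5096 in Etv3-/- (log2 fold change 0.99, SE 0.24, limma adjusted p = 0.107). Ceacam1, another partner of TIM-3 and itself an ITIM receptor, was at 4595 and 3620 against 1958, 1076 and 1531 (log2 fold change -1.46, SE 0.30, limma adjusted p = 0.0702). Havcr2 and Lgals9 thus had higher values in all 3 Etv3-/- libraries, and Ceacam1 lower values. None of these genes passed in limma, and Lgals9 and Ceacam1 were named after their values were seen. Hmgb1, another gene of the ligand list, was at 8534 and 10170 in Etv3+/+ and at 6039, 7459 and 5851 in Etv3-/- (log2 fold change -0.54, limma adjusted p = 0.240).

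The kinases that act on ITIMs held the called genes of the pathway. Of 20 ITIM signalling genes 3 rose and 0 fell, Fgr, Csk and Lyn, while the median log2 fold change of the list was 0.05. That median ran from 0.0059 without Etv3+/+ replicate 2, through 0.20 without Etv3-/- replicate 1, to 0.36 without Etv3+/+ replicate 1. edgeR called 3 higher, DESeq2 6 higher and 1 lower, and limma without its trend 0. Lyn, the Src family kinase that phosphorylates ITIMs in myeloid cells, was at 3042 and 2341 normalized counts in Etv3+/+ and at 6713, 6601 and 5714 in Etv3-/- (log2 fold change 1.24, SE 0.22, limma adjusted p = 0.0442). Fgr, a related kinase, was at 1026 and 551 against 3084, 4539 and 5436 (log2 fold change 2.49, SE 0.36, limma adjusted p = 0.0263). Csk, the kinase that holds the Src family in check, was at 2530 and 2287 against 5708, 6057 and 6852 (log2 fold change 1.36, SE 0.20, limma adjusted p = 0.0280). Without Etv3+/+ replicate 1 the list had 1 call, Fgr, and without any other single library it had 0. In those refits the limma adjusted p ran from 0.0785 to 0.173 for Lyn and from 0.0785 to 0.133 for Csk, and from 0.0746 to 0.114 for Fgr where it was lost. The call of Lyn was also lost with no filter on low values (limma adjusted p = 0.0533), with sample weights (0.0507) and without the trend (0.164).

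The phosphatase genes did not pass in limma, while DESeq2 called Inpp5d (adjusted p = 0.00013) and Ptpn6 (adjusted p = 0.0224). Ptpn6, the gene of SHP-1, was at 12336 and 7236 normalized counts in Etv3+/+ and at 14810, 19249 and 23156 in Etv3-/- (log2 fold change 0.99, SE 0.29, limma adjusted p = 0.154). Inpp5d, the gene of SHIP-1, was at 8811 and 6785 against 14192, 15815 and 16794 (log2 fold change 1.01, SE 0.21, limma adjusted p = 0.0694). Ptpn11, the gene of SHP-2, was at 2294 and 2499 against 2946, 3755 and 3365 (log2 fold change 0.48, SE 0.22, limma adjusted p = 0.304). The genotypes did not overlap for any of these 3 phosphatase genes, all with higher values in Etv3-/-, as for 16.7% of all genes. All 3 were named after their values were seen. Inppl1, a further phosphatase gene of the list, had overlapping genotypes, with 3308 and 2152 against 2525, 3006 and 3059 (log2 fold change 0.10, limma adjusted p = 0.877).

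On the activating side, 1 of 11 ITAM adaptor and kinase genes rose and 0 fell, with a median log2 fold change of 0.93. At an unadjusted limma p under 0.05 there were 7 higher and 0 lower, against 8.02% and 9.93% of all genes. edgeR called 0 and DESeq2 6, all higher. The log2 fold change was above 0 for 10 of the 11, while that of the kinase gene Syk was -0.02. Plcg2, which encodes the phospholipase downstream of SYK, was at 3236 and 2607 normalized counts in Etv3+/+ and at 6397, 6468 and 8259 in Etv3-/- (log2 fold change 1.27, SE 0.22, limma adjusted p = 0.0455). With edgeR its adjusted p was 0.0565, and it was lost without any single library (limma adjusted p = 0.0922 to 0.157). Tyrobp, the gene of the adaptor DAP12, was at 17940 and 15827 against 27457, 21017 and 28358 (log2 fold change 0.59, limma adjusted p = 0.221).

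**Figure D4:**
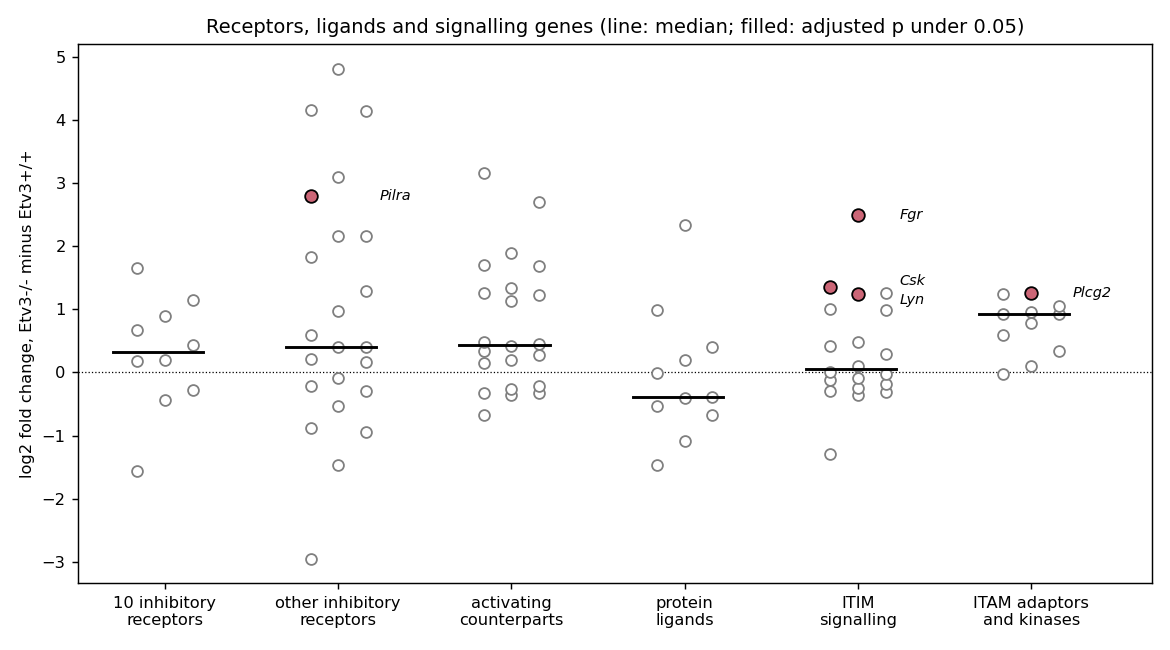
Log2 fold change (y axis, Etv3-/- minus Etv3+/+) of each tested gene in 6 lists, with the median of a list as a line and genes at a limma adjusted p under 0.05 filled and named. Pilra, Fgr, Csk, Lyn and Plcg2 are the called genes, and none of the 10 inhibitory receptors is among them.

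Some markers of other cell types had higher sums in Etv3-/-. Over 15 macrophage and monocyte markers the summed level was 11943 and 12816 normalized counts in Etv3+/+ and 23826 to 30681 in Etv3-/-, and 3 of 12 tested rose, C1qa, C1qb and C1qc, with Marco, Vsig4 and Timd4 at 0 in every library. C1qc, which encodes a chain of complement C1q, was at 281 and 416 normalized counts in Etv3+/+ and at 1995, 1895 and 2355 in Etv3-/- (log2 fold change 2.60, limma adjusted p = 0.0155), and the limma adjusted p rose to 0.0973, 0.0807 or 0.0947 without Etv3-/- replicate 1, 2 or 3. C1qa (log2 fold change 3.30, limma adjusted p = 0.0280) and C1qb (2.11, limma adjusted p = 0.0383) were lost without any single library. Csf1r, the gene of the CD115 that the sort gated out, was at 1018 and 1348 in Etv3+/+ and at 3493, 2403 and 2889 in Etv3-/- (limma adjusted p = 0.0683). Of the 12 tested macrophage and monocyte markers, 10 had a log2 fold change above 0, while Ly6c2 (-0.64) and Ccr2 (-0.21) were below 0. Over 12 B cell markers, of which 0 passed in limma, the sum was 2571 and 2181 in Etv3+/+ and 4754 to 7611 in Etv3-/-, and none was at 0 in every library. Ighm was at 1243 and 806 in Etv3+/+ and at 2076, 1279 and 1958 in Etv3-/-, and Cd79b at 574 and 262 against 1315, 1089 and 1834. Of the 12 B cell markers, 10 had a log2 fold change above 0, while Ms4a1 (-1.01) and Ebf1 (-1.37) were below 0. Macrophages and B cells are known to express Fcgr2b, macrophages also Sirpa and Havcr2, and the part of such cells in the receptor values was not tested. In bulk RNA a change in the number of cells of a type cannot be told apart from a change in RNA per cell.

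The sum over 10 neutrophil markers was 46765 and 52507 normalized counts in Etv3+/+ and 12595, 25972 and 72078 in Etv3-/- replicates 1, 2 and 3. Etv3-/- replicate 1, where Siglece had 7 reads, also had the lowest neutrophil sum. S100a8 and S100a9 were at 3307 and 2403 there, their lowest values, while Mpo (3337) and Elane (669), which mark early neutrophil precursors, were at their highest. The part of neutrophils in the Siglece values was not tested. The sum over 10 T and NK cell markers was 8825 and 9148 in Etv3+/+ and 1921 to 5105 in Etv3-/-, with Ncr1 at 0 throughout. Gzma and Nkg7 were the most abundant of these, while Cd3e and Eomes had log2 fold changes of 0.03 and 0.07. The sum over 10 mast cell and basophil markers was 19792 and 11359 against 12110 to 18246, with Mcpt4 at 0. Lilrb4a is also known in these cells. The 12 dendritic cell markers summed to 1599013 and 1174210 in Etv3+/+ and to 2375446 to 3195013 in Etv3-/-, and all were detected. Of these, 1 rose, Ciita, the regulator of MHC class II genes (log2 fold change 1.33, limma adjusted p = 0.0380), which was lost without any single library. The dendritic cell sum was carried mostly by Cd74, MHC class II genes and Ccr7. The log2 fold changes of Irf4 (-0.47), Batf3 (-0.19) and Ccr7 (-0.07) were below 0, and those of the other 9 markers above 0. The mitochondrial share was 1.98% and 6.64% in Etv3+/+, the higher one in replicate 2, and 1.10% to 3.17% in Etv3-/-.

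**Figure D5:**
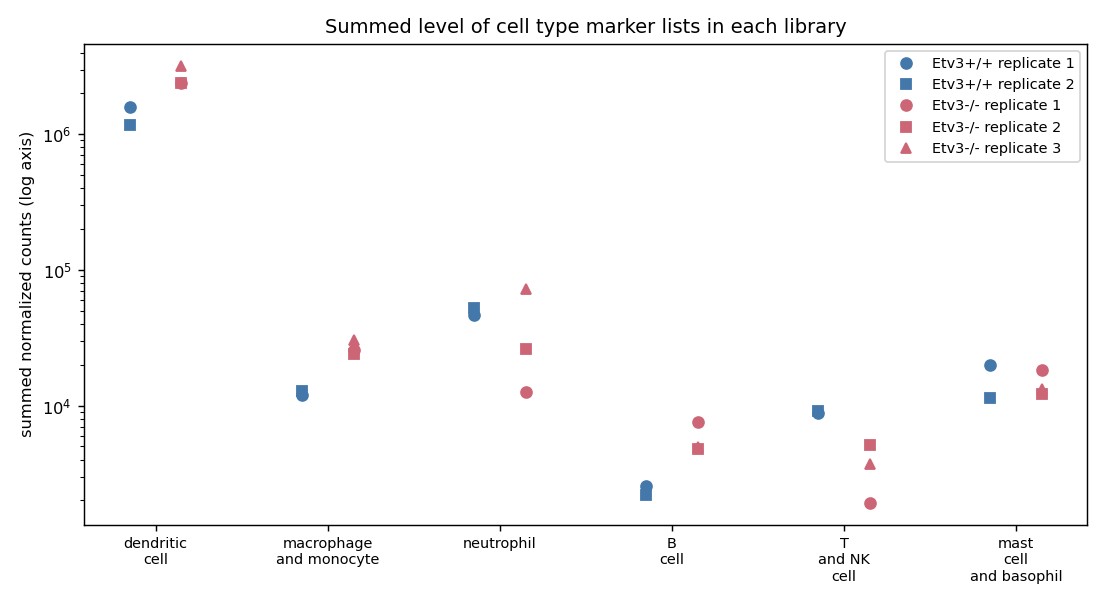
Summed normalized counts (y axis, log scale) of 6 cell type marker lists in each library. The macrophage and monocyte, B cell and dendritic cell sums are higher in all 3 Etv3-/- libraries, the T and NK cell sum is lower, and the neutrophil sum spreads most within Etv3-/-, from 12595 to 72078. A sum follows its most abundant genes, so single markers of a list can differ from it in direction.

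The genes with the most similar profile over the 5 libraries were listed for the receptors at both ends of the fold changes. For Havcr2 they were Plpp7, Hmox1, which encodes the heme-degrading enzyme heme oxygenase 1, and Kcnk13, a potassium channel gene, each with a Pearson correlation of 0.996 of log2 values. For Siglece they were Galnt12 (0.998), Ntn5 (0.997) and Ccdc130 (0.997). Hmox1 was at 549 and 893 normalized counts in Etv3+/+ and at 2442, 1684 and 1422 in Etv3-/-, the same order of libraries as Havcr2 from low to high. These are the highest correlations among 13813 genes over 5 libraries that share genotype and depth differences, and they are given as a description.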

How the data were processed

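RNA from 2 Etv3+/+ and 3 Etv3-/- samples was sequenced from SMART-Seq libraries. The deposited table holds normalized counts per gene, a signal that the authors obtained by dividing read counts by a factor per library. The submitters' processing notes name Trimmomatic 0.36, STAR 2.7.3a, featureCounts, Subread 1.6.3, DESeq2 1.26.0 and the build mm10. For the annotation and the use of strand in counting, the setting is not given in the sources used here. All values of the table were whole multiples of 1 value per library within 0.1 read, so whole reads were recovered (100% of values).

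Values were analysed as log2(normalized count + 1) with limma 3.58.1 in R 4.3.3 (lmFit, eBayes with trend, Benjamini-Hochberg adjustment, threshold 0.05) on 13813 genes with at least 10 normalized counts in at least 2 libraries, all 5 libraries entering 1 fit. Intervals are at 95%. Single genes were also given a two-sided exact permutation test. edgeR 4.0.16 (quasi-likelihood) and DESeq2 1.42.0 on recovered reads were alternatives, beside other scalings, pseudocounts, filters, limma settings, a replicate block and left-out libraries. The limma procedure was also run on simulated data, to check that larger set differences were found more often than smaller ones and in the right direction. No result above rests on that check. Positions and exon lengths come from GENCODE M21 (GRCm38), and upstream sequences from RefSeq.

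The receptors and 12 further lists were chosen with earlier results of these data known. The genes named were the 10 receptors, Etv3, up to 4 called genes per list with the largest fold change or the 2 of highest mean, and the 3 most correlated genes for the receptors with the highest and the lowest fold change. Ptpn6, Inpp5d, Ptpn11, Cd200, Lgals9, Cd24a, Csf1r, Tyrobp, Fcer1g, Dok2, Rasa1, Ceacam1 and Cd72 were named after their values were seen. Further genes of the lists, such as Cd200r4, Cd300c2 and Syk, were also named after their values were seen. The values of 1 marker gene are not reported here.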

Additional observations from a re-analysis of the deposited data

How the results depend on the processing

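None of the 10 receptors passed in limma as reported or in edgeR. The count of higher receptors was 1 with quantile scaling (Havcr2), 1 with the replicate block (Havcr2) and 3 with DESeq2. Of 180 receptor values under alternatives, 169 kept their direction and side of the threshold. Siglece reversed to 0.18 without Etv3-/- replicate 1 and ran down to -3.45 with libraries left out. Cd300lf ran from -0.22, without Etv3-/- replicate 1, to 0.43. Siglecg reversed to -0.12 with the replicate block and without Etv3-/- replicate 3, to -0.30 without Etv3+/+ replicate 2, and to -0.60 without both Etv3+/+ replicate 2 and Etv3-/- replicate 3, and reached 0.67 without Etv3+/+ replicate 1.

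Over all genes, the 121 higher calls became 44 without the limma trend, 636 with DESeq2, 0 to 73 with a library left out and 6 without both named libraries. The 44 lower calls became 70 with a pseudocount of 5, 533 with DESeq2, 118 with the replicate block, 0 to 7 with a library left out and 1 without both. The cause was not tested, except that left-out libraries leave fewer samples. Numbers 1 and 2 are shared by both genotypes, and deviations of same-numbered libraries had correlations of -0.03 and 0.04. With only 2 Etv3+/+ libraries these correlations are not independent, so they cannot decide whether same-numbered libraries were paired. Whether such libraries shared a culture day or a batch was not tested. The block leaves Etv3-/- replicate 3 without a partner. With the replicate block the limma adjusted p was 0.0335 for Havcr2, 0.0276 for Fcgr3 and 0.0456 for Trem2, all called there and not as reported. Cd200r1 was 1.46 without both named libraries.

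Among other genes, Cd274 reversed to 0.056 with TMM, 0.094 with quantile scaling, 0.010 with sample weights, 0.025 with edgeR and 0.081 with the replicate block, and ran from -0.31 to 0.38 with libraries left out (0.29 without Etv3+/+ replicate 2, 0.081 without Etv3-/- replicate 3). S100a9 reversed to 0.11 with edgeR, 0.059 with DESeq2 and 0.24 without Etv3-/- replicate 1, with a lowest value of -1.47. Kit reversed to 0.038 with edgeR and 0.010 with DESeq2, and ran from -0.44 to 0.27 with libraries left out, with 0.16 without Etv3+/+ replicate 1. Prss34 ran from -0.46, without both libraries, to 0.93, with -0.43 without Etv3+/+ replicate 2. mt-Co1 ran from -1.71 to 0.46 and mt-Cytb from -1.89 to 0.19, the upper ends without both libraries, and mt-Co1 was 0.0038 without Etv3+/+ replicate 2. Siglece rests on the fewest reads of the receptors.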
